A study of Mus musculus with 6 samples.

Results

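Complement is a cascade of plasma and cell-surface proteins that marks particles for uptake and calls in leukocytes. C1q, the recognition subunit, starts the classical pathway, in which C4 and C2 form an enzyme that cleaves C3. Factor B forms the corresponding enzyme of the alternative pathway. The fragments C3a and C5a act on leukocytes through their receptors C3ar1 and C5ar1. The liver makes most plasma complement, C1q comes mainly from macrophages and related myeloid cells, and kidney tubule cells are known to make *C3* and *Cfb* themselves.

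The genes described here are the 3 C1q chains (*C1qa*, *C1qb* and *C1qc*), *C2*, *C3*, *C4b*, *Cfb* and the receptors *C3ar1* and *C5ar1*, a list written by function. Each was matched by gene symbol to the deposited transcript table, and all 9 genes were found, in 13 of its 54721 transcript entries and among its 23276 gene symbols. Total kidney RNA was sequenced from 3 mice labelled KspCre; Pkd1 F/RC (SKO) and from 3 that carried miR17~92 F/F as well (DKO), all at postnatal day 22. In both groups Ksp/Cre, which is active in renal tubules, removes the floxed *Pkd1* allele, the other allele carries the hypomorphic RC mutation from the germline, and in DKO the floxed miR17~92 cluster is a further target of Ksp/Cre. Macrophages and endothelial cells lie outside the reach of this Cre. The table gives for each transcript a single mean abundance over the 6 kidneys together, in CPM (read counts scaled to the library total). Its remaining values are the authors' own comparison of DKO with SKO and were not used. The levels below therefore describe the 6 cystic kidneys as a whole, carry no SD, and do not separate the genotypes. How far the complement genes differ between DKO and SKO, how far kidneys of a group differ, and whether the targeted genes follow the labels was not analysed here. Since no spread is known, no neighbours in the order of levels can be told apart from their values.

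*Cfb* and *C3* had the highest counts. *Cfb*, which encodes factor B, was represented by 3 entries. Its 2 RefSeq transcripts, NM_001142706 and NM_008198, had the same authors' mean of 55.4 CPM (5.79 on the log2 scale), and a transcript assembled from the reads had 64.5 CPM (6.01 on the log2 scale), 1.16 times the RefSeq value. *C3*, the component on which the pathways converge, had a RefSeq transcript (NM_009778) at 42.6 CPM and an assembled one at 42.5 CPM. Entries of a gene are not separate measurements. Of the 51-base windows of NM_008198, the length of a read, 98.1% also occur in NM_001142706, so nearly every read of one fits the other.

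**Figure D1:**
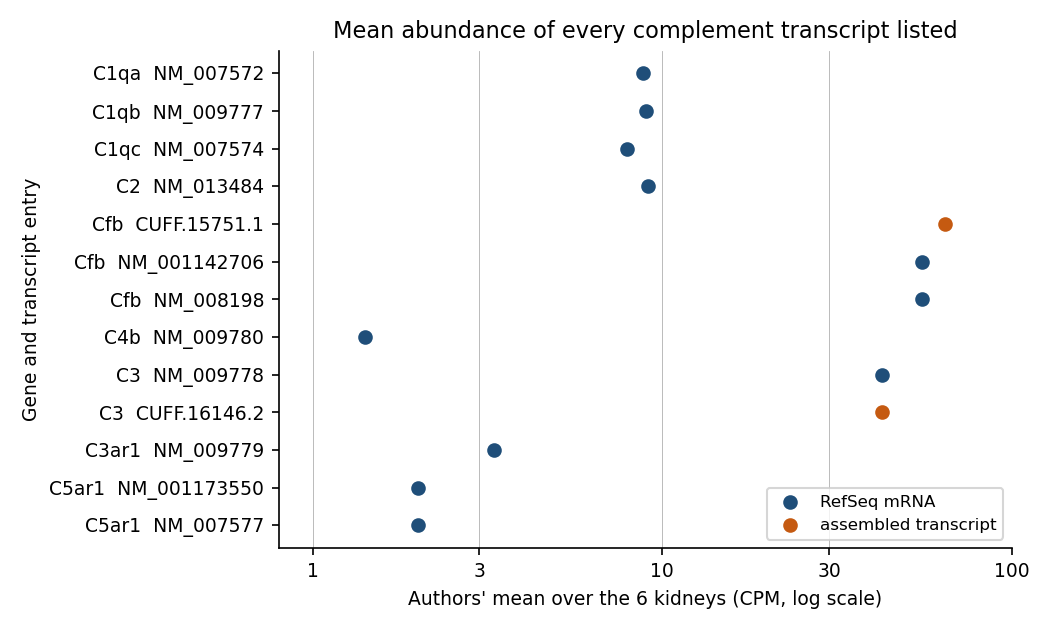
Authors' mean abundance over the 6 kidneys (CPM, log scale) of each of the 13 complement transcript entries, blue for RefSeq mRNAs and orange for transcripts assembled from the reads. The entries of *Cfb* lie at 55.4 to 64.5 CPM and those of *C3* at 42.5 and 42.6 CPM, while *C4b* is lowest at 1.41 CPM.

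The C1q chains lay close together. *C1qb* had a mean of 8.98 CPM (NM_009777), *C1qa* 8.83 CPM (NM_007572) and *C1qc* 7.92 CPM (NM_007574). The protein is built from equal numbers of these A, B and C chains. Per kilobase of transcript, which allows levels of different genes to be set side by side, they stood at 8.49 CPM for *C1qa*, 8.25 CPM for *C1qb* and 6.59 CPM for *C1qc*, and the ratio of *C1qb* to *C1qc* was 1.25. *C2*, the protease subunit of the classical pathway convertase, had a mean of 9.14 CPM (NM_013484) and, with a transcript of 2641 bases, 3.46 CPM per kilobase.

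*C4b* was the lowest of the 9 genes, at 1.41 CPM (NM_009780) on a transcript of 5379 bases. Its partner in the convertase, *C2*, was 13.2 times higher per kilobase, and *C3*, the substrate and a protein of the same family, was 31.6 times higher. The receptor genes were low as well. *C3ar1* had 3.30 CPM (NM_009779), and the 2 entries of *C5ar1*, NM_001173550 and NM_007577, had 2.006 and 2.003 CPM. Both receptors signal through G proteins and are best known from myeloid cells. Per kilobase *C3ar1* stood at 0.767 CPM and *C5ar1* at 0.790 CPM, a ratio of 0.971.

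Length changed the order of the genes. By CPM *C3* was 4.82 times as high as *C1qa*, but its transcript has 5136 bases and that of *C1qa* 1040. Per kilobase *C3* stood at 8.30 CPM, 0.977 times the level of *C1qa*. *Cfb* kept the first place on both scales, with 20.3 CPM per kilobase, 2.45 times the level of *C3* and 5.86 times that of *C2*. *C4b* remained last at 0.262 CPM per kilobase.

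**Figure D2:**
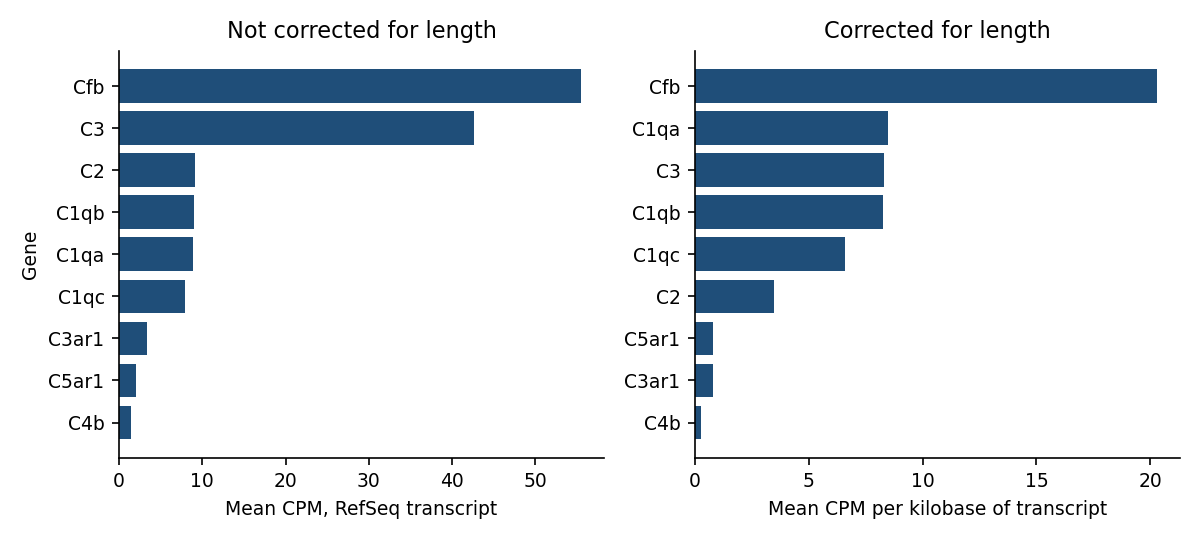
Bars starting at 0 give the authors' mean of the RefSeq transcript of each of the 9 genes in CPM (left) and in CPM per kilobase of that transcript (right), sorted by value. *C3* stands well above the C1q chains on the left, at 42.6 CPM against 7.92 to 8.98 CPM, and level with *C1qa* and *C1qb* on the right, at 8.30 against 8.49 and 8.25 CPM per kilobase.

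The members were spread widely. Both length and the cut at 1 CPM decided on which side of the middle the C1q chains fell. With no cut, *C1qa* by CPM exceeded 65.7% of genes, *C1qb* 66.0% and *C1qc* 64.0%. Among genes that reached 1 CPM on average, *Cfb* by CPM exceeded 91.2% of genes and *C3* 84.3%, while *C2* exceeded 39.5%, *C1qb* 39.1%, *C1qa* 38.5% and *C1qc* 35.5%. *C3ar1* exceeded 15.9%, *C5ar1* 8.18% and *C4b* 3.47% on that scale. The median of the 9 genes was 8.83 CPM, below the 12.6 CPM of all 13001 such genes. Per kilobase, a scale added after the values were seen, the C1q chains rank higher because their transcripts are short. The level of *Cfb* then exceeded that of 89.3% of genes, that of *C3* 73.2%, that of *C1qa* 73.7%, that of *C1qb* 73.0% and that of *C1qc* 66.5%. Among genes of at least 1 CPM *C2* lay below the middle on both scales, per kilobase above 45.1% of them. The receptors lay near the bottom of these genes, *C5ar1* above 9.83% and *C3ar1* above 9.40%, and *C4b* above 0.958%. With no cut, *C2* by CPM exceeded 66.2% of genes, *C3ar1* 53.0% and *C5ar1* 48.7%. The cut was made on CPM not corrected for length, and *C4b* passed it at 1.41 CPM on 5379 bases. How far its place per kilobase rests on that was not tested. The median of the 9 genes per kilobase was 6.59 CPM, above the 3.998 CPM of the 12736 such genes that have a transcript length.

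**Figure D3:**
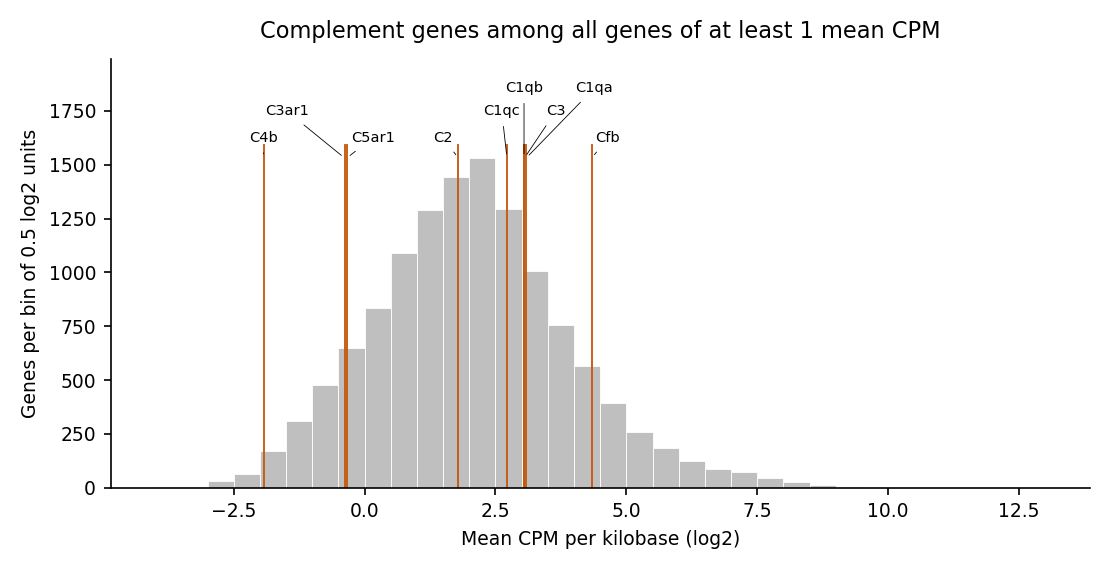
Number of genes per bin of 0.5 log2 units of mean CPM per kilobase, over 12736 genes that reached 1 CPM on average, with an orange line at each complement gene. The C1q chains, *C3* and *Cfb* lie to the right of the peak, and *C4b*, *C3ar1* and *C5ar1* on its left flank.

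The remaining complement genes place these levels in the pathway. Of 40 other genes for components, regulators and receptors, 38 were in the table, and 18 of these had a mean of at least 1 CPM, as did all 9 members. Over all genes in the table, 13001 of 23276 reached 1 CPM. Of the genes for the proteases that C1q carries, *C1s* had 8.76 and *C1ra* 3.01 CPM per kilobase, *C1rb* had 0.0126 (0.0307 CPM, near the lowest value in the table), and *C1s2* was not matched. The recognition molecules of the lectin pathway were scarce. *Mbl1*, *Mbl2*, *Fcna*, *Fcnb*, *Colec10* and *Colec11* all stayed under 1 CPM, from *Fcnb* at 0.0263 CPM, the lowest value in the table, to *Colec11* at 0.807 CPM. The lowest value is shared by 4617 entries, so it is a floor and not a level particular to *Fcnb*. Values near this floor, such as that of *C1rb*, were not corrected for it. In the same list *Masp1* had 6.75 CPM in its highest entry and 2.75 CPM in its highest entry with a transcript length. *Masp2* had 0.115 CPM. In the alternative pathway *Cfd*, the protease that cleaves factor B, had 13.2 CPM per kilobase, from 12.2 CPM. *Cfp*, properdin, had 9.96 CPM in its highest entry, which has no transcript length, and 1.59 CPM or 0.970 CPM per kilobase in its highest entry that has one.

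The terminal components, which build the membrane attack complex, were mostly low. Of 7 genes, 2 reached 1 CPM, *C7* at 6.36 CPM in its highest entry and *C8g* at 1.14 CPM. The highest entry of *C7* that has a transcript length had 3.36 CPM. *Hc*, which encodes C5, the source of the ligand of C5ar1, had 0.172 CPM. The lowest of the 7 was *C9* at 0.0551 CPM, not far above the floor of 0.0263 CPM. Some regulators in body fluids were abundant. *Clu*, clusterin, had 180.7 CPM per kilobase and *Serping1*, the C1 inhibitor, 32.6, both above *Cfb* at 20.3. Of the 5 listed in this group, 3 reached 1 CPM, and *C4bp* was lowest at 0.0891 CPM per kilobase. Of the membrane regulators *Cd59a* had 19.997 and *Cr1l* 16.4 CPM per kilobase, while *Cd46* had 0.0981. Among the 7 genes listed as other receptors *Cd93* was highest, at 7.91 CPM per kilobase, and *Vsig4* lowest, at 0.0445 from 0.0637 CPM. Their median was 0.337 CPM per kilobase. *C5ar2*, the other C5a receptor, had 0.144 CPM per kilobase, below *C5ar1* at 0.790.

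**Figure D4:**
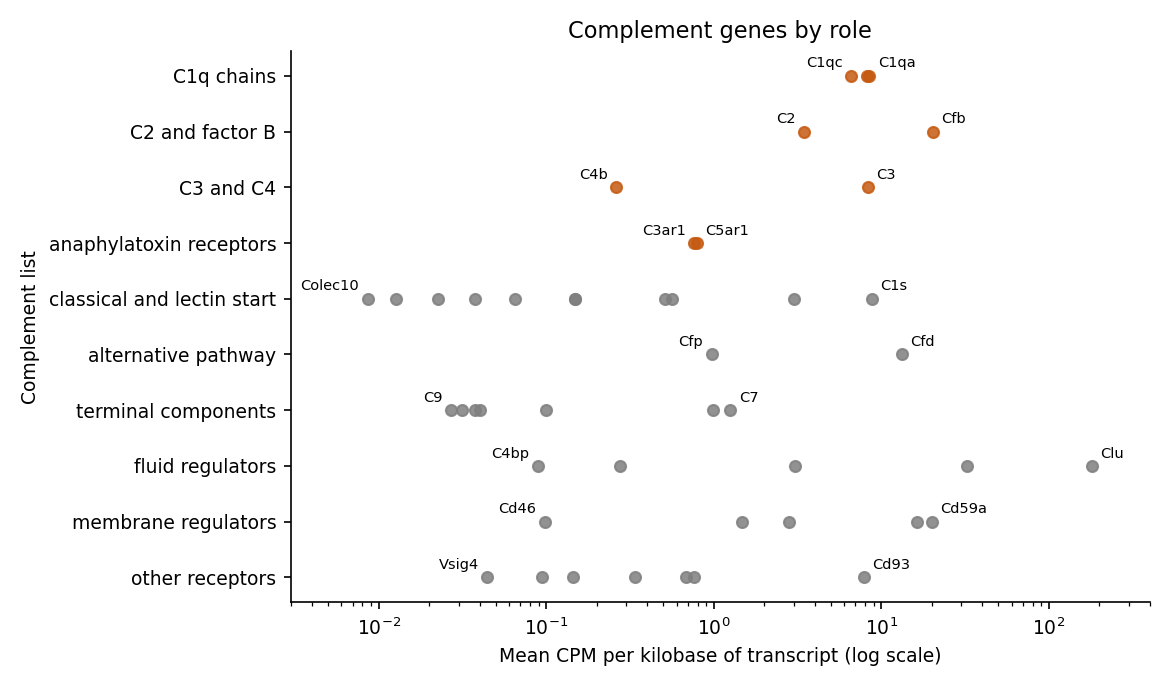
Mean CPM per kilobase of transcript (log scale) of the 9 members (orange, the 4 upper lines) and of the other complement genes with a transcript length (grey), grouped by role, with the highest and lowest gene of each group named. *Clu* is the highest gene drawn, at 180.7 CPM per kilobase, and *Cfb* lies at 20.3.

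Cell type markers were set beside these levels. Tubule genes were abundant, as the kidney label requires, with *Slc34a1* of the proximal tubule at 1030 CPM, *Umod* of the thick ascending limb at 1022 CPM and *Aqp2* of the collecting duct at 77.7 CPM. All 9 macrophage markers reached 1 CPM, from *Aif1* at 1.18 CPM to *Csf1r* at 25.3 CPM, and the 8 of them with a transcript length had a median of 2.11 CPM per kilobase, from 0.488 for *Fcgr1* to 13.4 for *Lyz2*. Of these, *Lyz2* alone stood above the C1q chains, and *Csf1r*, the next highest, had 6.24 CPM per kilobase, below *C1qc* at 6.59. *Cx3cr1* had 1.85 and *Emr1*, which encodes F4/80, 1.39 CPM per kilobase. Of T cell, B cell and neutrophil markers, 6 of 7 were in the table and none reached 1 CPM, the highest being *S100a9* at 0.586 CPM. Transcripts of hepatocyte genes were detected, *Ttr* at 18.2 CPM, *Alb* at 13.4 CPM and *Apoa1* at 1.4004 CPM, and so was *Hba-a1* of red cells at 72.9 CPM. In whole kidney RNA a level joins the number of cells that make a transcript and the amount in each cell. The part of any cell type in the complement levels was not tested.

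The positions of the genes bear on how reads could be assigned. In the GENCODE annotation of GRCm38, the assembly that mm10 names, the C1q genes lie side by side on the minus strand of chromosome 4, *C1qb* at chr4:136880129-136886187, *C1qc* at chr4:136889804-136893065 and *C1qa* at chr4:136895917-136898803, each with 3 exons. The cluster spans 18675 bases. *C4b* (chr17:34728380-34743882, 41 exons), *Cfb* (chr17:34856384-34862514, 18 exons) and *C2* (chr17:34862605-34882100, 18 exons) lie within 153721 bases on the minus strand of chromosome 17. Between *C4b* and *Cfb* lies *C4a*, and only 90 bases separate *Cfb* from *C2*. *C3* lies far away on the same chromosome (chr17:57203970-57228136, 41 exons). *C3ar1* is at chr6:122847138-122856161 and *C5ar1* at chr7:16246743-16259540, where the 3-exon transcript NM_007577 has 98.8% of its 51-base windows in common with the 2-exon NM_001173550.

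Each RefSeq transcript was cut into all its 51-base windows, and these were sought on both strands of every annotated transcript of other genes. For *C1qa*, *C1qb*, *C1qc*, *C3*, *C3ar1* and *C5ar1* none of the windows occurred elsewhere. For *Cfb* 81.8% (NM_008198) and for *C2* 57.9% of the windows occurred in *Gm20547*, an annotated gene on the same strand whose exons run through both, and in no other gene. *Gm20547* has no entry under that symbol in the deposited table, which also holds 9317 entries without a gene symbol. Whether reads of such a joined transcript were counted for *Cfb* or *C2* was not tested.

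*C4b* shares sequence with its neighbour *C4a*, which lies 65209 bases away. Of the 5329 windows of *C4b*, 34.6% occurred without a difference in *C4a*, and 69.5% were within 2 mismatches of the longest annotated *C4a* transcript. A read can be told from one of the neighbour only where the genes differ, as in the 30 bases with 9 differences shown here. These were read from the GENCODE transcripts because they show what tells the genes apart. They were picked for having the most differences among stretches that align on both sides, so they are not typical. They lie within exon 21 of each transcript, at chr17:34735436-34735465 in the coding sequence of *C4b* and at chr17:34816092-34816121 in *C4a*, and are given 5′ to 3′ on the minus strand with the differing bases in capitals.
C4b: aGGtggtggctCGagggGTtttTgattTaG
C4a: aATtggtggctAAagggACtttGgattCaA
In the deposited table *C4a* had a mean of 0.161 CPM and *C4b* 1.41 CPM. Alignments of low mapping quality had been discarded by the authors, a step that can remove reads fitting both genes equally well. Its part in the low level of *C4b* was not tested.

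**Figure D5:**
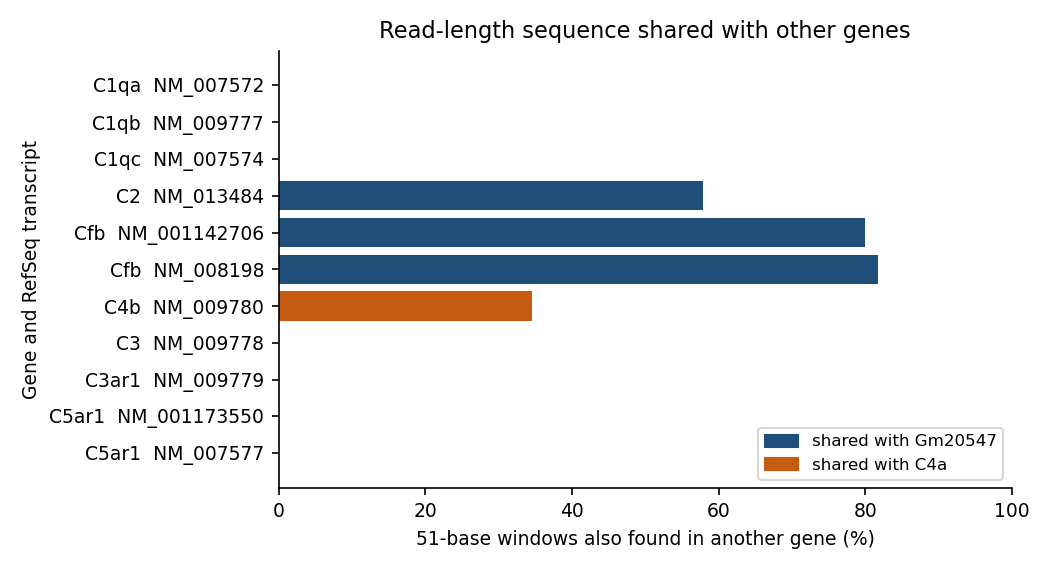
Percentage of 51-base windows of each RefSeq complement transcript that also occur in a transcript of another gene, blue where that gene is *Gm20547* and orange where it is *C4a*. *Cfb* (80.02% and 81.8%), *C2* (57.9%) and *C4b* (34.6%) share sequence, and the other transcripts, drawn with no bar, share none.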

How the data were processed

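Strand-specific total RNA libraries of 3 SKO and 3 DKO kidneys were read as 51-base single ends. After trimming, reads were aligned by the authors to mm10 with TopHat2 2.0.12 and the iGenomes annotation, and alignments of mapping quality below 10 were dropped. The submitters' processing notes also name Cufflinks, featureCounts, Subread 1.4.6 and edgeR 3.2.4. The deposited log2 values are the authors' mean CPM of each transcript over all libraries, from edgeR. The table's other 4 columns hold the authors' comparison of DKO with SKO (a fold change, a likelihood ratio, a p-value and an adjusted p-value) and were not used. Values of single kidneys were not given, so the edgeR test that had been planned on counts could not be run, and the depth of each library is unknown.

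The log2 means were converted to CPM. A gene was represented by its entry with the highest mean, and, per kilobase, by its highest entry with a transcript length. Lengths, positions and sequences came from GENCODE M21, and 96.6% of 27012 RefSeq mRNA entries had a length. Percentiles used genes of at least 1 CPM. The window search was checked on simulated sequences. Of 9 genes, 5 had a promoter entry in the RefSeq table (GRCm38.p6), and none is printed. The named genes are the 9 members and, from each complement list, the highest, the lowest and those whose role is described; the latter, and the markers shown, were chosen after their values were seen. One listed regulator is not reported here. The members and lists were chosen with earlier results of these data known. Python 3.11.15, numpy 2.4.6 and pandas 2.3.3 were used.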

Additional observations from a re-analysis of the deposited data

How the results depend on the processing

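These are levels without a test and without replicate error, so any change in the printed digits was counted as a change. Percentiles depended most on the setting. The median percentile over the 9 genes was 38.5% by CPM among genes of at least 1 CPM, 65.7% with no filter on low abundance, and 66.5% per kilobase, a scale added after seeing the data. *C4b* stood above 3.47% of genes by CPM, 46.1% with no filter and 0.958% per kilobase. The summed entries of a gene count shared reads again. They gave 175.4 CPM for *Cfb*, 85.1 CPM for *C3* and 4.01 CPM for *C5ar1*, and left the other 6 genes and the median level of 8.83 CPM where they were. With RefSeq entries only, *Cfb* had 55.4 CPM and the other levels did not change. The length of the longest RefSeq transcript changed no level per kilobase that is given here by more than the rounding. At least 0.1 CPM was reached by 41 of the 47 complement genes in the table and 1 CPM by 27. Over all 23276 genes, 15953 reached 0.1 CPM and 13001 reached 1 CPM. DESeq2, other normalizations, a count filter and fits without 1 replicate need counts of single kidneys and could not be fitted. No paired analysis was possible because only means over all kidneys were at hand and the replicate numbers were given in accession order.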
